A study of Mus musculus with 3 samples.

Results

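The angiopoietin-like proteins are secreted glycoproteins built like the angiopoietins, with a coiled-coil stretch followed by a fibrinogen-like domain, but they are not classical ligands of the Tie2 receptor. The genes described here are Angptl1, Angptl2, Angptl4, Angptl6 and Angptl7, taken by name, with no measured value in the rule. They were found through the RefSeq accessions of the array probes. All 5 were present, each with 1 probe and 1 spot per array, out of 20886 genes with a named probe and 39429 probes in all. In this family Angptl4 is best known as an inhibitor of lipoprotein lipase, the enzyme that releases fatty acids from blood lipids at the vessel wall. Angptl2 is known for roles in inflammation and in fat tissue, Angptl1 as an inhibitor of vessel growth, Angptl6 as a growth factor for vessels and skin, and Angptl7 for its expression in the cornea and the outflow tissue of the eye.

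RNA came from primary endothelial cells, as labelled, of C57BL/6 mouse penile cavernous tissue, which fills with blood in erection, cultured in a medium with serum, heparin and vascular endothelial growth factor A. Cells were kept for 48 h in normal glucose (5 mmol as labelled), in high glucose (30 mmol), or in high glucose with DKK2 protein, a secreted modulator of Wnt signalling (its dose is not stated in the labels). Each condition was 1 one-colour array, hybridised with a pool of RNA from 3 samples, so there was no replicate check and no p-value. Errors are technical SDs from the scanner's error model. They leave out any variation between cultures, and array position and condition cannot be told apart. The 75th percentile of the signal was 1201 on the normal glucose array, 2380 on the high glucose array and 2417 on the DKK2 array, so values were scaled by it before arrays were compared. A difference is the log2 ratio of the scaled signals, and a gene was counted as higher or lower where the difference was at least 2-fold. The number of arrays limits the precision.

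The label was set against markers. Of 12 endothelial markers 10 were above background on all arrays, while Emcn was above it on 2 arrays and Erg on 1. All 8 fibroblast markers and all 8 smooth muscle and pericyte markers were also above background on every array. Being above background did not make the endothelial markers bright. At normal glucose the median signal was 50.4 for the endothelial list, 23434 for fibroblast and 4376 for smooth muscle and pericyte. Single endothelial genes differed widely there, with Kdr at 3648, Cdh5 at 195 and Tie1 at 9.84. Signal also depends on the probe, so these medians do not rank the cell types. Between high glucose and DKK2 the summed signal of the endothelial list went from 12034 to 12817, most of it from the receptor gene Kdr (9128 and 10901). Of the 11 endothelial genes measured on both arrays 0 were at least 2-fold higher with DKK2 and 4 were lower (median -0.35). The fibroblast sum went from 1028370 to 744538. Macrophage markers went from 6081 to 17718 (7 of 8 with a named probe) and adipocyte markers from 53398 to 21306. Of the other marker lists, skeletal muscle had 4 of 7 genes at least 2-fold lower with DKK2, Schwann cell 2 of 6, smooth muscle 1 of 8 and fibroblast 2 of 8, and the epithelial list had 1 higher and 1 lower of 4. In pooled RNA, fewer cells of a type and less RNA per cell cannot be told apart.

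With DKK2, Angptl2 and Angptl7 were both higher than in high glucose alone and Angptl1 was lower, all by at least 2-fold. Angptl4 was lower by less than that and Angptl6 differed little. Among all 17826 genes measured on those arrays 5.09% were higher and 4.87% were lower, against 2 and 1 of the 5 genes here. With normexp background correction, which raises dim signals towards a common floor, Angptl2 was the 1 gene past 2-fold and 0 were lower, where 2.84% of genes were higher and 2.69% lower. Between high and normal glucose the 1 gene past 2-fold was Angptl1, which was lower, where 2.7% of 16764 genes were higher and 5.71% lower (1.03% and 23.5% with normexp, under which Angptl1 was again the 1 gene). The normexp floor is set before the scaling. Against the dimmer normal glucose array, a probe near that floor is therefore shifted towards a negative difference. The shift does not fix the sign: Icam2, with signals of 39.6 and 462, was at 0.89 with normexp. Angptl1 was read on a dim probe too. DKK2 against normal glucose gave Angptl2 and Angptl7 as higher and Angptl1 as lower, both as scaled and with normexp. There 10.5% of 16668 genes were higher and 10.4% lower, or 5.62% and 24% with normexp. Over all genes the median difference was 0.09 for high against normal glucose and 0.08 for DKK2 against high glucose, and for the 5 genes it was 0.09 and 0.02. The differences had both signs in each comparison.

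Angptl2 encodes a secreted protein that binds the fibronectin-receptor integrin and the immune receptor encoded by Pirb. Its processed signal was 316 ± 31.6 (technical SD) on the normal glucose array, 740 ± 74.0 on the high glucose array and 1606 ± 161 on the DKK2 array. Divided by each array's 75th percentile these signals were 0.263, 0.311 and 0.665. The DKK2 array was thus the high one, and normal and high glucose were close to each other after scaling. The log2 difference was 1.10 for DKK2 against high glucose (error SD 0.20), and 741 of 17826 genes had a larger value. For high against normal glucose it was 0.24 (error SD 0.20, and -0.02 with normexp background correction). Against normal glucose the DKK2 value was 1.34 (error SD 0.20).

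Angptl7, the family member associated with the eye, had a signal of 24151 ± 2415 at normal glucose, 50978 ± 5098 at high glucose and 105901 ± 10590 under DKK2. Relative to the 75th percentile its values were 20.1, 21.4 and 43.8. High and normal glucose differed by less than the technical error (0.09, error SD 0.20), and the DKK2 array stood above both. The difference for DKK2 against high glucose was 1.03 (error SD 0.20), beside the 2-fold line. It was 0.995 with normexp, 0.92 with quantile normalization and with cyclic loess, and 0.997 when the 75th percentile was taken over spots instead of probes, so the count of 2 higher genes becomes 1 under these settings. Among the 3565 genes of the brightest 20%, to which Angptl7 and Angptl4 belong, 1.96% were higher with DKK2 and 1.99% lower. Set against normal glucose, DKK2 gave 1.12 (error SD 0.20, 0.98 with quantile normalization and 0.91 with cyclic loess).

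**Figure D1:**
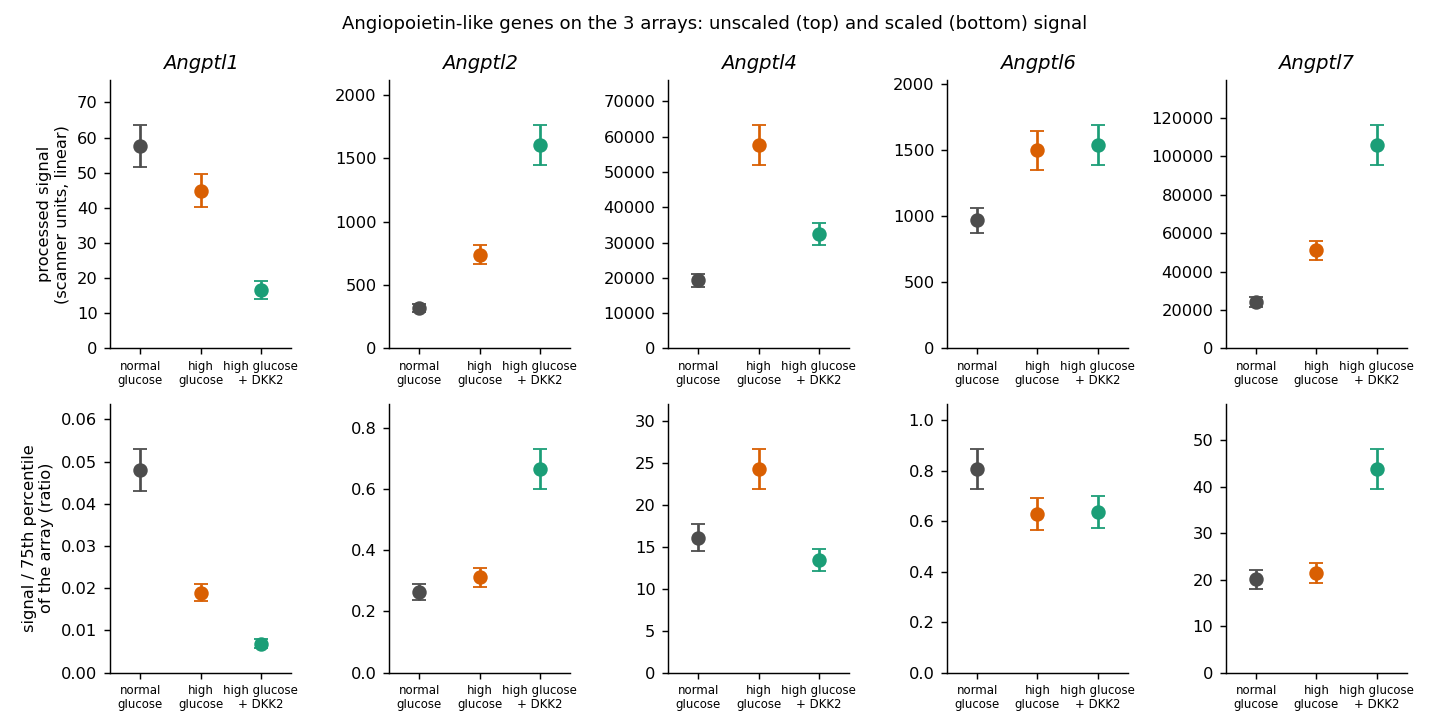
Signal of the 5 genes on the 3 arrays, as processed signal in linear scanner units (top) and divided by the array's 75th percentile (bottom). Points are the single arrays and bars are 1 technical SD. After scaling, Angptl2 and Angptl7 are highest with DKK2 (0.665 and 43.8), Angptl4 is highest in high glucose (24.2) and Angptl1 is lowest with DKK2 (0.00687).

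Because Angptl2 and Angptl7 were both higher with DKK2, the 250 bases before their annotated start sites are shown with those of Angptl1, which went the other way. Sequences are from RefSeq (GRCm38.p6), 5′ to 3′ on the gene's strand: chr2:33215711-33215960 on the plus strand for Angptl2, chr4:148500463-148500712 on the minus strand for Angptl7 and chr1:156838773-156839022 on the plus strand for Angptl1. Capitals mark a match to any of 6 motifs searched on both strands.
Angptl2: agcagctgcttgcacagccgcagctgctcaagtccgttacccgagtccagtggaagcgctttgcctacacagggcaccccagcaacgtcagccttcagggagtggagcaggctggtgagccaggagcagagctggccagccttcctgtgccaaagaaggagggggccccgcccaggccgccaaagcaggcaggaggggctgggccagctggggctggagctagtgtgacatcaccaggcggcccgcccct
Angptl7: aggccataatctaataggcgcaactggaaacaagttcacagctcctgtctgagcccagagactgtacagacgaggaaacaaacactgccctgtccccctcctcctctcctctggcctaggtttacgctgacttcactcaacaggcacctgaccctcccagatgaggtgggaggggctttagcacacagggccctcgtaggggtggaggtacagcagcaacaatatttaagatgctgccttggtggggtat
Angptl1: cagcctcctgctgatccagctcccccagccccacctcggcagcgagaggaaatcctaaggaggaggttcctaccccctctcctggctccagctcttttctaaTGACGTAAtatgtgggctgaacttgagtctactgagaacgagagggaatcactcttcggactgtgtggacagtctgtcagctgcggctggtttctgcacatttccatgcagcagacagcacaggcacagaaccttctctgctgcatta
The motifs were CTTTGAT (TCF/LEF, the factors of Wnt signalling), ACGTG (core of the hypoxia response element), TGANTCA (AP-1), TATAAA (the core promoter box), TGACGTNA (cyclic AMP response element) and AGGTCA (the single nuclear receptor site). They occurred in 3.21%, 16.6%, 6.75%, 12.4%, 2.52% and 14% of 32851 windows of this length. The windows of Angptl2, Angptl7 and Angptl6 held none of them. That of Angptl1 held 1, TGACGTAA, starting 148 bases before the start site (position -148). GC content was 66.8% for Angptl2, 54.4% for Angptl7 and 54.8% for Angptl1, and the median over all windows was 52.4%. No binding was measured in this study, so a match is a description of letters.

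Angptl4 encodes the lipase inhibitor of the group and is a textbook target gene of the PPAR nuclear receptors, of hypoxia and of glucocorticoids. Its signal was 19291 ± 1929 at normal glucose, 57670 ± 5767 at high glucose and 32426 ± 3243 under DKK2. Scaled to the 75th percentile this was 16.1, 24.2 and 13.4, so the high glucose array was above both others. High against normal glucose gave 0.59 (error SD 0.20), a 1.51-fold difference, and 2283 of 16764 genes had a larger value. DKK2 against high glucose gave -0.85 (error SD 0.20), a 1.81-fold lower value, with 1146 of 17826 genes lower still. With quantile normalization it was -1.004, just past 2-fold. DKK2 against normal glucose gave -0.26 (error SD 0.20, 95% technical interval -0.66 to 0.14). The first 2 differences share the high glucose array.

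Angptl1, known as an inhibitor of vessel growth, was read on a dim spot. Its signal was 57.7 ± 6.04 at normal glucose, 44.9 ± 4.79 at high glucose and 16.6 ± 2.46 under DKK2, where the lowest signal called above background on these arrays was 7.57, 7.22 and 7.97. Unlike the other 4 genes, its signal was lower on the brighter high glucose array even before scaling. The log2 difference was -1.35 for high against normal glucose (error SD 0.22) and -1.46 for DKK2 against high glucose (error SD 0.26). With normexp these were -1.63 and -0.44, so the DKK2 call was lost there. With no scaling between arrays the glucose difference was -0.36. DKK2 against normal glucose gave -2.81 (error SD 0.26), a 6.99-fold lower value, and 147 of 16668 genes were lower still. It was -2.06 with normexp and -1.80 with no scaling. Among the dimmest 20% of genes, to which Angptl1 belongs, 13.9% were lower in that comparison. Angptl1 has no value under the filter that asks for a signal of at least 100 on all arrays.

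Angptl6, also known as angiopoietin-related growth factor, had the smallest of the 5 differences for DKK2 against high glucose. Its signal was 970 ± 97.0 at normal glucose, 1499 ± 150 at high glucose and 1541 ± 154 under DKK2, or 0.807, 0.630 and 0.638 of the 75th percentile. Normal glucose was slightly above the other arrays after scaling and below them before it. The differences were -0.36 for high against normal glucose (95% technical interval -0.76 to 0.04) and 0.02 for DKK2 against high glucose (95% technical interval -0.38 to 0.42). DKK2 against normal glucose gave -0.34 (error SD 0.20).

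**Figure D2:**
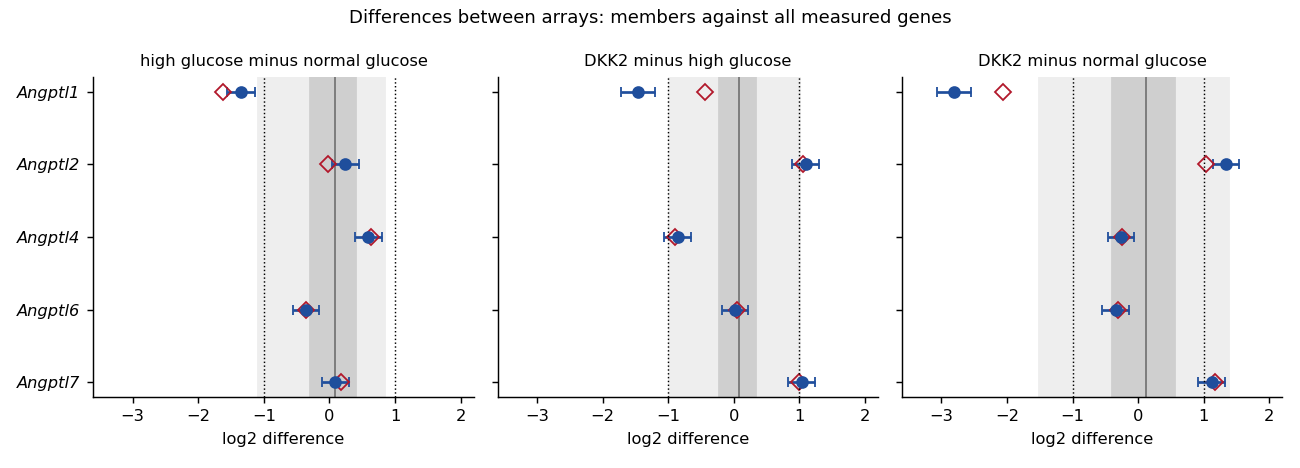
Log2 differences of the 5 genes in the 3 comparisons. Filled points are the reported values with 1 technical SD, open diamonds the values with normexp background correction. The dark and light bands hold the middle 50% and 90% of all genes, the grey line is their median, and dotted lines mark 2-fold. For DKK2 against high glucose, Angptl2 at 1.10 and Angptl7 at 1.03 lie beyond the upper 2-fold line and Angptl1 at -1.46 beyond the lower one, or at -0.44 with normexp.

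The ratio of 2 genes on an array does not depend on a scaling factor between arrays, so the members were also set against one another. The Angptl2 to Angptl4 ratio was higher with DKK2 than in high glucose by 1.95 log2 units (technical error SD 0.29), between 1.95 and 2.08 over the 6 background corrections and normalizations compared. The Angptl4 to Angptl7 ratio changed by -1.89 (error SD 0.29, between -1.93 and -1.87). Under each of these 6 settings Angptl4 was down relative to Angptl2 and to Angptl7. Percentile scaling, median scaling and no scaling differ only by a factor per array, so these settings return the same ratio. Only normexp, quantile normalization and cyclic loess could change a ratio, and Angptl4 was down with each of them. The Angptl2 to Angptl7 ratio changed by 0.06 (error SD 0.29), less than the technical error. In high against normal glucose the Angptl4 to Angptl6 ratio was higher by 0.95 (error SD 0.29, between 0.89 and 0.99). For DKK2 against high glucose the Angptl1 to Angptl4 ratio had no settled sign: it was -0.61 as scaled (error SD 0.33) and 0.46 with normexp.

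Angptl8, a relative that lacks the fibrinogen-like domain and acts on lipoprotein lipase, had signals of 251, 293 and 449 in normal glucose, high glucose and DKK2. Its differences were -0.76 for high against normal glucose and 0.59 for DKK2 against high glucose, both under 2-fold.

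Among the angiopoietins and Tie receptors, the closest relatives in structure, Angpt1, which encodes the activating ligand of Tie2, was at -3.08 for high against normal glucose and 1.00 for DKK2 against high glucose, and Angpt2, whose protein can block that ligand, was at 1.45 and -0.80. Angpt4 was at -0.57 and -1.43 (-0.46 for the second with normexp). The Tie receptor genes Tek and Tie1 were at 0.38 and 0.47 in high glucose, and at -1.14 and 0.35 with DKK2, on dim probes: with normexp, Tek was at -0.87 and -0.55 and Tie1 at -1.59 and 0.16. In the wider group of 13 fibrinogen-domain proteins, 9 were measured in both high glucose conditions, of which 2 were higher and 1 lower with DKK2. Those higher, Tnr at 1.16 and Fcna at 1.54, were on dim probes and were at 0.46 and 0.82 with normexp. The lower one was Mfap4, a microfibril-associated protein, at -4.32. For DKK2 against normal glucose 5 of 8 were higher and 2 lower (median 1.10, or -0.89 with normexp). The lower ones were Mfap4 at -4.41 and Tnxb, which encodes a tenascin of connective tissue, at -1.27, while none of the 5 higher ones was past 2-fold higher with normexp.

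Lipoprotein lipase itself, Lpl, was at 0.76 in high glucose and -1.88 with DKK2, and its second probe gave 0.41 and -1.83. Gpihbp1, the endothelial anchor of the lipase, was at 0.85 and -1.01 (0.21 and -0.83 with normexp). Pcsk6, one of the proprotein convertases that can cleave angiopoietin-like proteins, was at 0.86 and -1.08, whereas Furin was at -0.38 and 0.22. Of the 13 lipase, cofactor and protease genes measured with DKK2, 2 were up by 2-fold or more and 3 down (median 0.10). Those up were the lipase genes Lipg at 1.63 and Lipc at 1.97, on dim probes, and with normexp they were at 0.49 and 0.61. Against normal glucose 0 of 11 were higher with DKK2 and 1 was lower, Lpl at -1.12. In high glucose 0 of 11 were higher and 1 was lower, Lipc at -1.53, on a probe with signals of 21.7 and 14.9. Adipocyte markers moved beside these genes. Of the 7 measured with DKK2, 5 were lower and 0 higher (median -3.32, or -2.05 with normexp). Adipoq, the adiponectin gene, was at -6.20, or -4.18 with normexp, on a dim DKK2 signal of 28.7. In high glucose 4 of 8 were higher and 0 lower (median 0.93, or 0.22 with normexp). Their part in the Angptl4 and Lpl values was not tested.

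Genes that respond to the same regulators as Angptl4 were followed as lists. For DKK2 against high glucose, 5.09% of all genes were higher and 4.87% lower. High against normal glucose gave 2.7% and 5.71%, and DKK2 against normal glucose 10.5% and 10.4%. These shares are the background for the counts of every list. DKK2 gave 1 higher and 2 lower of 23 PPAR receptor and target genes (median 0.06), and in high glucose 1 was higher and 2 lower of 22 (median -0.10). Among the lower ones with DKK2 was the fatty acid binding protein gene Fabp4 at -1.09. Fabp3, the heart-type binding protein gene, was at 1.16. The PPAR target genes Pdk4 and Cpt1a were at -0.53 and -0.33, and Plin2, a lipid droplet coat protein gene, at 0.86. Pparg itself was at -0.78. Fabp4 and Pparg are also in the adipocyte list. In high glucose Hadha, which encodes an enzyme of fatty acid oxidation, and Ucp2, a mitochondrial carrier gene, were at -1.36 and -1.26. The 1 higher gene there was the fatty acid transporter gene Cd36 at 2.19 (0.97 with normexp). DKK2 against normal glucose gave 2 higher and 2 lower of 22, with Cd36 at 2.71 (1.45 with normexp), Fabp3 at 1.02 and Pparg at -1.11.

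Among 18 hypoxia targets DKK2 gave 5 genes at least 2-fold higher and 0 lower, where 5.09% of all genes were higher and 4.87% lower. The list's median was 0.43, against 0.08 for all genes. Of the 18 genes 11 were above 0, and Ndrg1 at -0.59 and Adm at -0.49 were among the rest. Ankrd37 was at 1.73, the prolyl hydroxylase gene Egln3 at 1.35, the glycolytic enzyme gene Pgk1 at 1.28 and the glucose transporter gene Slc2a1 at 1.15. In high glucose 1 of 17 was higher and 0 lower (median 0.26). That gene, Egln1, was at 1.07 on a dim probe (signals of 24.0 and 99.9). It was at -1.02 with normexp, which shifts dim probes towards negative values in this comparison, so its direction is not settled. For DKK2 against normal glucose 6 of 17 were higher and 0 lower, with Ldha at 1.38, where 10.5% of all genes were higher and 10.4% lower. Among 12 glucocorticoid targets 1 was higher with DKK2, the phosphatase gene Dusp1 at 1.66. In the same list 1 was lower, Zbtb16 at -1.24, or -0.95 with normexp (median 0.04). With 12 genes, 1 call on a side cannot be told apart from the share of all genes. In high glucose Cebpd was the 1 gene higher, at 1.23. The receptor gene Nr3c1 was at 0.75 and -0.83, but its second probe gave -0.89 and -0.77. Its direction in high glucose is therefore not settled. For DKK2 against normal glucose 2 of 12 were higher, Dusp1 at 1.99 and Cebpd at 1.62, and 2 were lower, Zbtb16 at -1.83 and Tsc22d3 at -1.35.

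**Figure D3:**
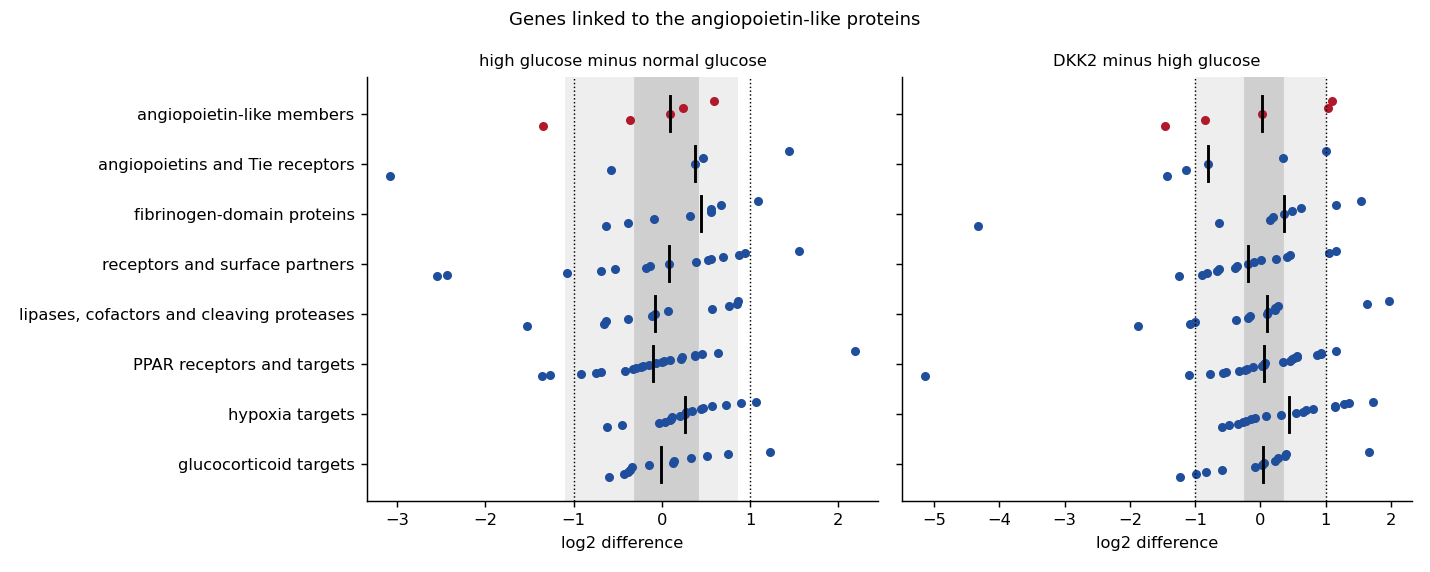
Log2 differences of the listed genes for high against normal glucose (left) and DKK2 against high glucose (right). Each point is a gene, the black bar is the list's median, the dark and light bands hold the middle 50% and 90% of all genes, and dotted lines mark 2-fold. Hypoxia targets have a median of 0.43 with DKK2 and the 5 angiopoietin-like genes are spread from -1.46 to 1.10.

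Of 15 receptors and surface partners proposed for the family, 2 were higher and 1 lower with DKK2 (median -0.19). The higher ones were Pirb, the immunoglobulin-like receptor that binds Angptl2, at 1.16 and its relative Lilrb4a at 1.05, whose probe may also read a near-identical neighbour gene. Pirb had signals of 249, 904 and 2047 in normal glucose, high glucose and DKK2, so the receptor and Angptl2 were both highest on the DKK2 array. Both receptors are typical of myeloid cells. Macrophage markers stood beside them, with 5 of 7 higher and 0 lower under DKK2 (median 1.74, Cd14 at 2.03). The part of such cells in the Angptl2, Pirb and Lilrb4a values was not tested. In high glucose 1 of the 15 was higher and 3 were lower, among them the integrin genes Itga1 and Itga5 at -2.55 and -2.43. The second probe of Itga1 gave -0.72. Itgb1, which pairs with both, was at -0.18 and 0.46, and its second probe gave -0.89 and -0.20. Itgb3, in a receptor proposed for Angptl4, was at 0.39 and -0.82, and its dim second probe gave -0.04 and 0.20. The junction genes Cdh5 and Cldn5 were at 0.56 and 1.55 in high glucose (0.09 and -0.25 with normexp). With DKK2 these junction genes were at -0.89 and -1.25 (-0.73 and -0.82 with normexp). Cldn5 was the 1 lower partner with DKK2, a call lost with normexp. They belong to the endothelial list too, of which 4 of 10 were higher and 0 lower in high glucose (median 0.51, or -0.04 with normexp). The part of such shifts in the Angptl values was not tested. Over the receptors and surface partners, DKK2 against normal glucose gave 2 higher and 5 lower of 15. Pirb at 2.03 and Lilrb4a at 1.99 were higher, and Itga1 at -3.18 (-0.78 on its second probe), Itga5 at -2.02, Sdc4 at -1.43, Nrp1 at -1.19 and Itgb5 at -1.07 (-0.96 with normexp) were lower.

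Genes with the nearest pair of differences were sought among named genes with a signal of at least 100 on each array. The likeness rests on 2 differences from 3 arrays. For Angptl2 the nearest of 11722 genes were Mmab, Herc3 and Ankfy1, each within a distance of 0.02 log2 units, and 100 genes lay within 0.2. For Angptl7 they were Cox7a1, Plxna1 and Ap1s2, with 110 genes within 0.2. For Angptl1 the nearest were Spryd3 at 0.14, Maf at 0.32 and Osr2 at 0.34. Angptl1 itself lies under the signal limit set for these genes, so its distances are not set against those of the other 2 genes.

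**Figure D4:**
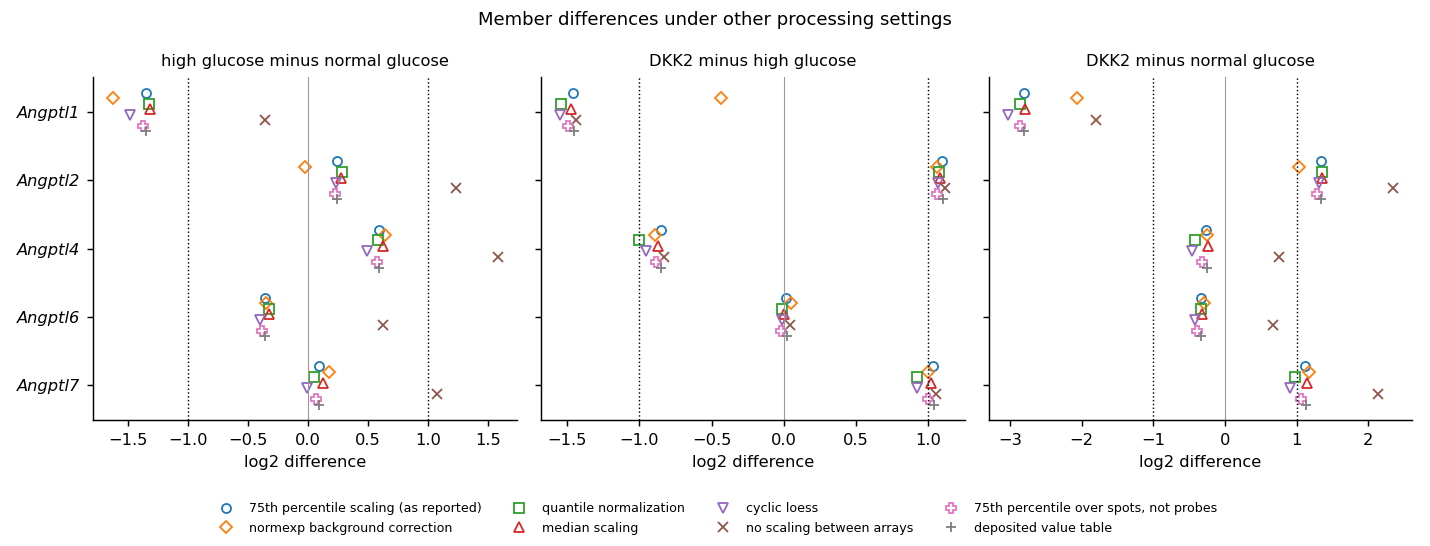
Log2 differences of the 5 genes in the 3 comparisons under 8 processing settings, 1 marker each. Dotted lines mark 2-fold. Omitting the scaling between arrays moves every gene up in the comparisons with the dimmer normal glucose array, for example Angptl4 from 0.59 to 1.58, while DKK2 against high glucose changes most for Angptl1, from -1.46 to -0.44 with normexp.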

How the data were processed

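Per the labels, each array held a pool of RNA from 3 samples. Per the file headers, arrays were quantified with Feature Extraction 11.5.1.1 in 1 colour on a design built on mm9, and the deposited scanner files list each spot's processed intensity and its flags. The deposited value table holds the same intensity averaged over spots, equal within a fraction of 0.001 for at least 99.8% of probes, on a linear scale, neither scaled nor centred (column medians 101.8, 196.2 and 204.6). Of 44397 spots, 1377 control spots and 110 to 136 outlier spots were left out, and 0 were saturated. Values were log2 of the signal averaged over a probe's spots, minus the array's 75th percentile over probes. Probes with at least 50% of spots flagged well above background were kept. Through RefSeq accessions (GRCm38.p6 table, names only) 27508 probes had 1 symbol, 11921 had 0 and 0 had several. A gene was read on its brightest probe.

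With 1 array per condition nothing was tested. The call was 2-fold. Named genes were the 5 members, the angiopoietins and Tie receptors, list genes at least 2-fold apart also with normexp (up to 4 per list and direction), and the 3 nearest genes by pattern; other list genes are named with their values for context and were chosen after those were seen. Members and lists were chosen with earlier results of these data known. Alternatives were normexp (offset 50, on the median signals), quantile, median and cyclic loess normalization, no scaling, no filter, a signal of at least 100, the mean over probes, the deposited table, 1.5-fold and 3-fold rules and, chosen after seeing the data, the percentile over spots. The counting was checked on simulated data. The promoter table held 4 of the 5 members. Some listed genes are not reported here by name. Tools were R 4.3.3, limma 3.58.1, Python 3.11.15 and numpy 2.4.6.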

Additional observations from a re-analysis of the deposited data

How the results depend on the processing

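No paired analysis was possible because each condition had 1 array. Each of the 5 genes was read on 1 spot per array, so no second probe or spot found through RefSeq accessions checks it. Probes without a mapped accession were not searched for these genes. Signal over background limits Angptl1 most. Changes with the processing are given as values, and the cause was not tested. Of 219 values recomputed, 185 stayed within their technical interval or within 1.5 times the count, 34 moved and none of the called differences changed sign. Many of the 185 could not move. Each of the 5 genes had 1 probe above background on all arrays, so no filter and the mean over probes return the same value. The signal filter does so for the genes it keeps, and the deposited table holds the same intensity. The 185 is therefore not a measure of stability. Genes counted as at least 2-fold apart, of the 5, went from 1 to 3 with no scaling, 0 with the signal filter, 2 with the 1.5-fold rule and 0 with the 3-fold rule for high against normal glucose. For DKK2 against high glucose they went from 3 to 1 with normexp, 0 with the 3-fold rule and 4 with the 1.5-fold rule. They went to 2 with cyclic loess, with the signal filter and with the percentile over spots. Quantile normalization kept 3, but as 1 higher and 2 lower. For DKK2 against normal glucose they went from 3 to 1 with the 3-fold rule. There they went to 2 with quantile normalization, cyclic loess and the signal filter.

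With no scaling, differences for high against normal glucose were -0.36 (Angptl1), 1.23 (Angptl2), 1.58 (Angptl4), 0.63 (Angptl6) and 1.08 (Angptl7), and for DKK2 against normal glucose -1.80, 2.35, 0.75, 0.67 and 2.13 in that order. With normexp Angptl1 was at -0.44 for DKK2 against high glucose and -2.06 for DKK2 against normal glucose.

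Over all genes, the high against normal glucose count of 1411 (453 higher, 958 lower) became 4106 with normexp (172 and 3934), 9471 with no scaling (9312 and 159), 3248 with no filter, 802 with the signal filter, 4619 at 1.5-fold and 430 at 3-fold. For DKK2 against high glucose 1776 became 986 with normexp, 2668 with no filter, 887 with the signal filter, 4351 at 1.5-fold and 611 at 3-fold. For DKK2 against normal glucose 3477 (1750 higher, 1727 lower) became 9913 with no scaling (9498 and 415), 2199 with the signal filter, 7240 at 1.5-fold and 1329 at 3-fold, and 4942 with normexp (937 and 4005). Normexp moved the median of all genes from 0.09 to -0.25 for high against normal glucose, and no scaling moved it to 1.07. The slide could not be used as a block with 1 array per condition.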
